A study of Mus musculus with 6 samples.

Results

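The RNAs described here are 10 mouse long noncoding RNAs, chosen by name: Malat1, Neat1, Meg3, Rian, Mirg, Gas5, Snhg1, Snhg3, Snhg8 and Kcnq1ot1. They were chosen with earlier results of these data known. A probe was assigned to a member when the accession that the array gives it belongs to that gene in a RefSeq gene table, and 7 of the 10 members had such a probe, of 16490 genes tested in all. Rian, Gas5 and Snhg8 had no probe matched in this way and were not analysed here. For Gas5 the array carries an older accession that the gene table does not list. The missing match is therefore not an absence of Gas5 from the array. Of the 10 matching probes, 9 passed the filter on low signal and were tested. Of the 7, 5 had a single probe, and Meg3 and Kcnq1ot1 had more. Whether the members are abundant could not be read from the arrays, since the signals of different probes are not on one scale.

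The cells were neuro2a (N2a), a mouse neuroblastoma line. Control cells had been transfected with the empty RNAi vector (3 arrays), and knockdown cells with vectors of the same kind carrying miRNA-type hairpins against NF-YA and NF-YC (3 arrays), and RNA was taken 2 days after transfection. NF-Y is a transcription factor of 3 subunits that binds CCAAT sequences, and the comparison asks which RNAs differ when 2 of the subunits are depleted. Both groups were transfected in the same way, but only the knockdown vectors carried hairpins, and no array here had a non-targeting hairpin. Effects of hairpin expression itself therefore cannot be told apart from those of NF-Y depletion. The share of cells that took up a vector was not measured here, and every sample came from this single line. Nothing in the labels says that the replicates were separate cultures, so p-values measure the spread between these arrays, which may be technical.

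Long noncoding RNAs act as RNA and are not translated. Malat1 lies in nuclear speckles, the stores of splicing factors, and Neat1 is the RNA scaffold around which paraspeckle proteins assemble. Meg3, Rian and Mirg are expressed from the maternal chromosome of the imprinted Dlk1-Dio3 region, where Rian carries C/D box snoRNAs and Mirg carries miRNAs. Kcnq1ot1 is expressed from the paternal chromosome of the Kcnq1 region and silences neighbouring genes on the same chromosome. Gas5, Snhg1, Snhg3 and Snhg8 are host genes: snoRNAs, many of which guide the modification of ribosomal RNA, are cut from their introns. The spliced host RNA is generally degraded by nonsense-mediated decay in the cytoplasm.

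The RefSeq table places 10 miRNA genes within Mirg, giving 19 mature miRNAs, 3 miRNA genes and 11 snoRNA genes within Rian, 2 miRNA genes within Meg3, 8 snoRNA genes within Gas5 and 8 within Snhg1, 2 within Snhg3 and 1 within Snhg8. None of these inner genes had a tested probe, so the arrays read the host RNAs alone. Mature miRNAs encoded in Mirg are shown because Mirg was one of the members lower in knockdown cells. The seed, bases 2 to 8, which pairs with target RNAs, is in capitals (RefSeq, GRCm38.p6, 5′ to 3′), and miR-453 and miR-496a-5p are the only 2 of the 19 that share one.
miR-453: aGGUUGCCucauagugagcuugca
miR-496a-5p: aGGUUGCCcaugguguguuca
miR-154-5p: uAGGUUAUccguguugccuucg
miR-410-3p: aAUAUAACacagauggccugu

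The start of each member is shown where the data bear on NF-Y, whose core recognition sequence is CCAAT. Each window runs from 250 bases before to 50 bases after an annotated start, 300 bases in all, on the strand of the gene, from RefSeq (GRCm38.p6). Both strands were searched for the letters CCAAT, and every match, read on the strand of the gene, is in capitals. The 4 windows printed are those of Mirg, which was lower in knockdown, of Meg3, its neighbour in the same imprinted region, of Kcnq1ot1, which had the most matches, and of Snhg3, a snoRNA host.
Mirg, chr12:109734731-109735030, plus strand: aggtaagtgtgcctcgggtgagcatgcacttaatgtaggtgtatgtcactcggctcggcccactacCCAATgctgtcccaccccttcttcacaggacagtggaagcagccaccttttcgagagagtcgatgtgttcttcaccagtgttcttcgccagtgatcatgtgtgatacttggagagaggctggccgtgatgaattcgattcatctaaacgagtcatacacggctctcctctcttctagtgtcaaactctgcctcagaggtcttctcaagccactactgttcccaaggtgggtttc
Meg3, chr12:109540746-109541045, plus strand: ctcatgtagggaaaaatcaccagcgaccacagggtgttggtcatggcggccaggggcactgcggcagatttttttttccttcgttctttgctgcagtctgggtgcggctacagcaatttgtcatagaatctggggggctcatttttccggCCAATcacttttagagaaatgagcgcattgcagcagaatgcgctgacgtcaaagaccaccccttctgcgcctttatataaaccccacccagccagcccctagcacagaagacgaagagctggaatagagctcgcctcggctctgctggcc
Kcnq1ot1, chr7:143296498-143296797, minus strand: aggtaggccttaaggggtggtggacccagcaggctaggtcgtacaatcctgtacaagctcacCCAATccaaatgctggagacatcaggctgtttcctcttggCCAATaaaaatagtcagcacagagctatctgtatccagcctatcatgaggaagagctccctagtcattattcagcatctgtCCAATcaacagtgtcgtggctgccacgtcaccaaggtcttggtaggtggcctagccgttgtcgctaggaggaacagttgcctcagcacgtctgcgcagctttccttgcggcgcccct
Snhg3, chr4:132353637-132353936, minus strand: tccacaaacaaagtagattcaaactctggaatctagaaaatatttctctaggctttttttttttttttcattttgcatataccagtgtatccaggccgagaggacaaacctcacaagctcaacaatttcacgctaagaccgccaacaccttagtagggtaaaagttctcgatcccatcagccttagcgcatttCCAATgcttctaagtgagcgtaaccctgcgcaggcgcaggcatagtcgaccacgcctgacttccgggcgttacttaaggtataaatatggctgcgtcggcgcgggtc

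Mirg held 1 match, 184 bases upstream of its annotated start, and Meg3 held 1, at 100 bases upstream. Kcnq1ot1 held 3, at 188, 148 and 67 bases upstream. Snhg3 held 1 at 57 bases upstream, and Snhg8 held 1 at 121. The windows of Malat1, Snhg1 and Rian, both windows of Gas5 and a further window of Meg3 held no match, and Neat1 had no entry. Counted by gene, 5 of 9 members with a window (55.6%) held the letters, beside 41.1% of 27025 genes. Counted by window, it was 5 of 11 (45.5%) beside 37.4% of 32851 windows. The letters are short, so a match marks a sequence and not a bound site, and the Mirg window also contains 2 whole miRNA hairpins, Mir668 and Mir485, upstream of the annotated start.

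Signals are given as log2 of the processed signal minus log2 of the 75th percentile of the same array, here called the normalized signal, and a change is knockdown minus control on that scale. A probe was called lower or higher at an adjusted p below 0.05 with a fold change above 1.5 (limma, Benjamini-Hochberg over 42126 probes tested). The 75th percentile was 718 to 754 intensity units over the 6 arrays, and 61.9% to 66.2% of spots were well above background. Arrays correlated at 0.989 to 0.994 within groups and 0.987 to 0.99 between groups. Slide row 1 held the 3 control arrays and knockdown replicate 1, and row 2 held knockdown replicates 2 and 3. A fit with slide row as a block therefore gives the same change as row 1 alone, from knockdown replicate 1 against the controls. The row block and the comparison within row 1, both given below, are thus not separate checks of a change. The targeted genes were lower in knockdown cells, Nfya by a change of −0.76 and Nfyc by −1.81, with all knockdown arrays below all controls. All 15 markers of the neuroblastoma and sympathetic lineage, among them Hand2 and Th, were well above background on all 6 arrays. So were 4 of 5 fibroblast markers (Lum was below), 3 of 4 glial markers and both blood cell markers with a probe, Ptprc and Itgam. The linear normalized signals of the glial markers summed to 0.761 to 0.779 in control and 0.447 to 0.458 in knockdown. The sums were 403 to 413 and 384 to 398 for the neuroblastoma list, 0.222 to 0.260 and 0.253 to 0.289 for fibroblasts, and 5.78 to 6.95 and 5.94 to 7.19 for blood cells. The part of these markers in the results was not tested.

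Of the 7 members measured, Neat1 and Mirg were called lower in knockdown cells, none was called higher and 5 were not called. Over all genes tested, 5.0% were called lower and 3.91% higher, and over all probes 3.82% lower and 3.35% higher. The median change of the 7 members was −0.02, beside 0.0053 over all genes. The knockdown arrays all lay below the controls for 2 members and all above them for 2, Snhg1 and Snhg3, while the groups overlapped for 3. Over all genes, the arrays were separated in this way downwards for 27.1% and upwards for 27.7%. All 7 leading probes, meaning the tested probe of a gene with the highest mean signal, were well above background on all arrays, and none was saturated.

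**Figure D1:**
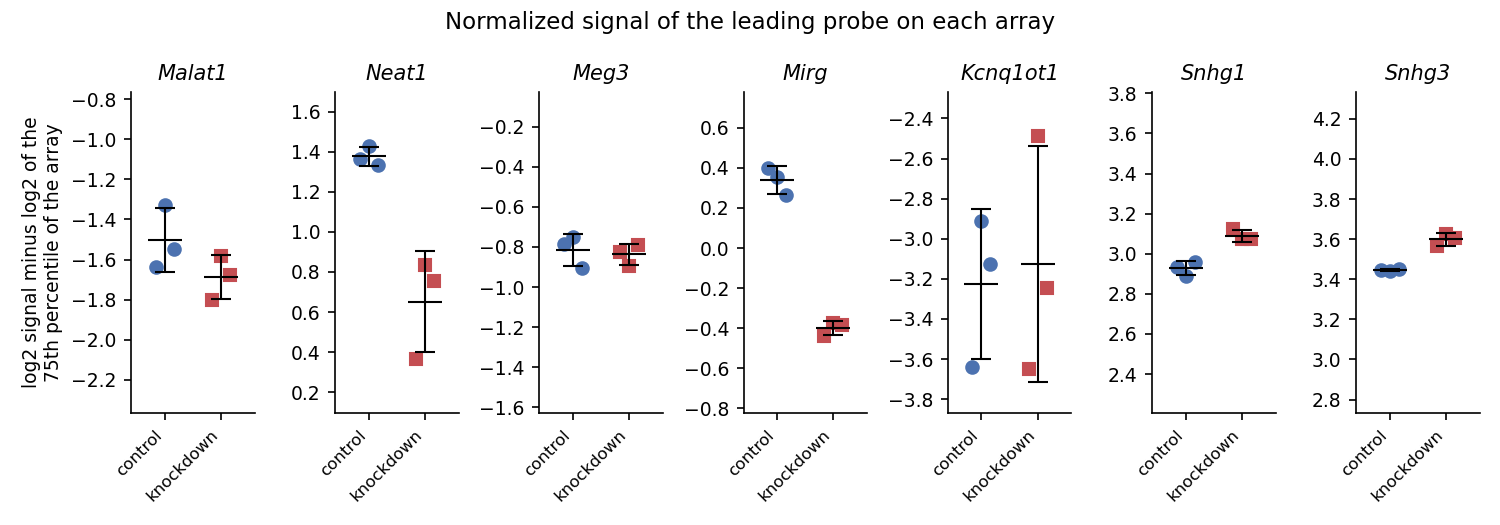
Normalized signal (log2, vertical axis) of the leading probe of 7 members on each array, with replicates 1 to 3 from left to right within each group (circles, 3 control arrays; squares, 3 knockdown arrays). Each panel spans the same log2 range, and the bars give the mean ± SD. The knockdown arrays lie below all controls for Neat1 and Mirg and above them for Snhg1 and Snhg3.

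Malat1 and Neat1 are neighbours on the chromosome, and both mark nuclear bodies. Neat1 was called lower in knockdown cells and Malat1 did not pass the test. Their 95% confidence intervals, given with each change, overlap, and the difference between the 2 changes was not tested. The Neat1 probe gave normalized signals of 1.36, 1.43 and 1.34 on the control arrays and 0.37, 0.84 and 0.75 on the knockdown arrays. The groups did not overlap, and knockdown replicate 1 lay well below the other two. The means were 1.38 ± 0.049 and 0.65 ± 0.25 (SD, n = 3 each). The change was −0.72 (SE 0.13, 95% confidence interval −1.07 to −0.38), or 1.65-fold lower, with an adjusted p of 0.0185 (limma). RNA was taken from whole cultures, so that less RNA per cell and fewer cells holding it cannot be told apart. RefSeq lists 2 Neat1 transcripts, and which of them the probe reads was not determined.

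The Neat1 call was not stable to leaving out an array. The adjusted p was 0.0663 without control replicate 1, 0.0690 without control replicate 2 and 0.0565 without control replicate 3, with changes of −0.73, −0.70 and −0.74. Without knockdown replicate 1 the change was −0.58, which is under the 1.5-fold minimum, at an adjusted p of 0.0131. Within slide row 1, where 3 controls face knockdown replicate 1 alone, the change was −1.01 (adjusted p = 0.0430, limma).

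The Malat1 probe gave −1.64, −1.33 and −1.55 on the control arrays and −1.80, −1.58 and −1.68 on the knockdown arrays. The lowest control lay below the highest knockdown array, so the groups overlapped. The means were −1.50 ± 0.16 and −1.69 ± 0.11 (SD, n = 3 each), a change of −0.19 (SE 0.10, 95% confidence interval −0.45 to 0.081, adjusted p = 0.274). Frmd8, the nearest tested gene on the other side of Neat1, had a change of 0.079 (adjusted p = 0.208).

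Proteins of both bodies were listed beside their RNAs. Of 15 paraspeckle proteins tested, none was called and the median change was 0.033 (0.018 to 0.091 over the alternatives, lowest without knockdown replicate 1). At an adjusted p below 0.05 and any fold, which 15.8% of all genes met downwards and 15.7% upwards, Rbmx, an RNA-binding protein of the hnRNP family, differed by 0.54 (adjusted p = 0.00274) and Rbm14, which is needed for paraspeckle assembly, by −0.29 (adjusted p = 0.0143). Of 16 nuclear speckle and SR proteins tested, none was called and the median change was 0.056 (0.019 to 0.12 over the alternatives, lowest without knockdown replicate 1). Srrm1, a splicing coactivator, and the splicing factor kinases Clk1 and Clk4 had changes of 0.15, 0.23 and 0.21, and Acin1 had −0.32, all with an adjusted p below 0.05 and under 1.5-fold.

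**Figure D2:**
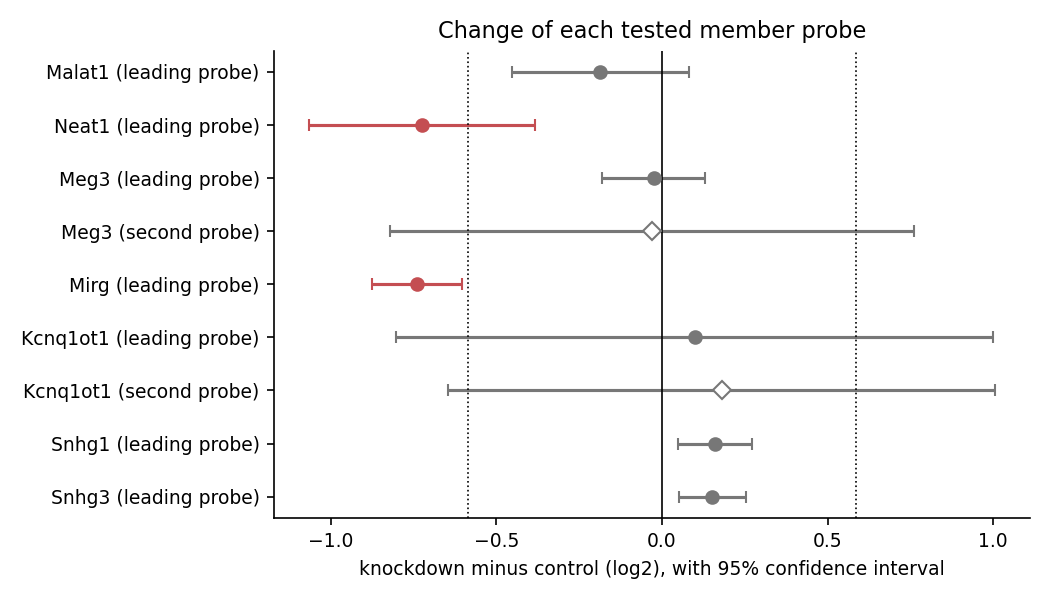
Change between knockdown and control (log2, horizontal axis) of each of the 9 tested member probes, with its 95% confidence interval from limma. Filled circles are leading probes, open diamonds further probes of the same gene, red marks probes called lower, and dotted lines mark a 1.5-fold change. The intervals of Neat1 and Mirg lie wholly below 0, those of Snhg1 and Snhg3 wholly above 0, and those of both Kcnq1ot1 probes and the second Meg3 probe are the widest.

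In the imprinted Dlk1-Dio3 region, Mirg was lower in knockdown cells while Meg3, from the same parental chromosome, did not pass the test. The Mirg probe gave 0.40, 0.36 and 0.26 on the control arrays and −0.44, −0.37 and −0.39 on the knockdown arrays. All knockdown arrays lay well below all controls, with little spread in either group. The means were 0.34 ± 0.069 and −0.40 ± 0.036 (SD, n = 3 each). The change was −0.74 (SE 0.054, 95% confidence interval −0.88 to −0.60), or 1.67-fold lower, at an adjusted p of 0.00131 (limma). It stayed called when any single array was left out, with changes of −0.78 to −0.71. Within slide row 1 the change was −0.78, with an adjusted p of 0.0603.

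The leading Meg3 probe gave −0.78, −0.75 and −0.90 on the control arrays and −0.83, −0.90 and −0.79 on the knockdown arrays. The groups overlapped almost fully. The means were −0.81 ± 0.080 and −0.84 ± 0.055 (SD, n = 3 each), and the change was −0.02 with a 95% confidence interval of −0.18 to 0.13 (adjusted p = 0.807). The second Meg3 probe was dim, well above background on 3 control and 2 knockdown arrays. Its change was −0.030 with an interval of −0.82 to 0.76 (adjusted p = 0.958). The third Meg3 probe stayed near background on all 6 arrays, and it was not tested.

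The 95% confidence intervals of Mirg and of the leading Meg3 probe did not overlap, though the difference between their changes was not itself tested.

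**Figure D3:**
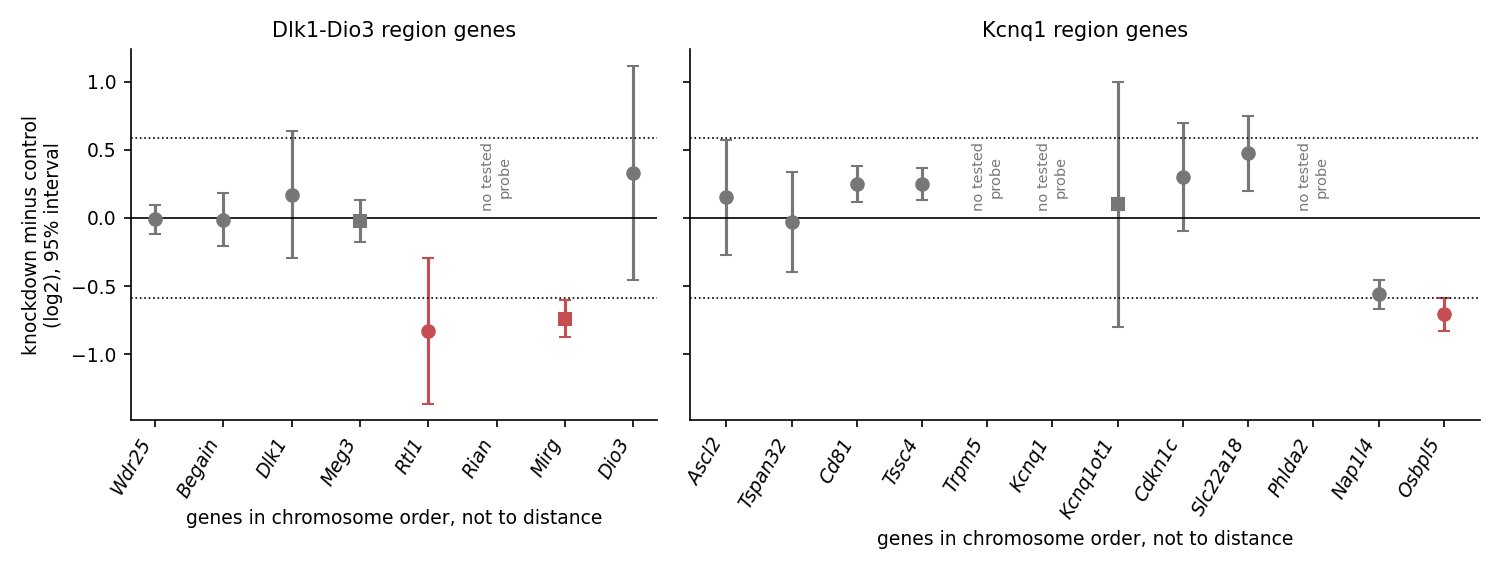
Change between knockdown and control (log2, vertical axis) of the genes of the Dlk1-Dio3 region (left) and the Kcnq1 region (right) in chromosome order, not to distance, with 95% confidence intervals from limma. Squares are the long noncoding members, circles protein-coding genes, red marks genes called lower, and dotted lines mark a 1.5-fold change. Rtl1 and Mirg on the left and Osbpl5 on the right are called lower.

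Of the 5 protein-coding genes of the Dlk1-Dio3 region tested, 1 was called lower and none higher, with a median change of −0.012 (−0.016 to 0.084 over the alternatives). That gene was Rtl1, a retrotransposon-derived gene whose annotated span overlaps Meg3 and Rian. Its probe gave −4.49, −4.43 and −4.95 on the control arrays and −5.11, −5.61 and −5.64 on the knockdown arrays. The groups did not overlap, but the probe was dim, well above background on all 3 control arrays and on 1 knockdown array. The change was −0.83 (SE 0.21, adjusted p = 0.0465). The Rtl1 call was lost without control replicate 1 or 2 or knockdown replicate 2 or 3 (adjusted p = 0.139, 0.134, 0.130 and 0.131), with the replicate block (adjusted p = 0.0605), with no filter on low signal (adjusted p = 0.0674), within slide row 1 and with slide row as a block (−0.48 in both), and with the normexp background correction (−0.12 and −0.18). Dlk1, a Notch-like membrane protein at the left end of the imprinted region, had a change of 0.17 (adjusted p = 0.560). Dio3, the deiodinase that inactivates thyroid hormone and the neighbour of Mirg, had 0.33 (adjusted p = 0.502). Begain and Wdr25, at the outer left edge, both had −0.012. Rian lies between Meg3 and Mirg and was not analysed here.

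Kcnq1ot1 did not pass the test, and its measurement was the least precise of the members. The leading probe gave −3.64, −2.91 and −3.12 on the control arrays and −3.65, −2.49 and −3.24 on the knockdown arrays. Each group spanned the range of the other to a large extent, and in both groups replicate 1 was the lowest. The means were −3.23 ± 0.37 and −3.13 ± 0.59 (SD, n = 3 each). The change was 0.099 (SE 0.35, 95% confidence interval −0.80 to 1.0, adjusted p = 0.871), an interval that includes a 1.5-fold change in either direction. Its direction turned to −0.42 within slide row 1. The second probe, well above background on 3 control and 2 knockdown arrays, had a change of 0.18 (SE 0.33, adjusted p = 0.733).

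Around Kcnq1ot1, 8 genes of the Kcnq1 region were tested, of which 1 was called lower and none higher, with a median change of 0.20 (0.066 to 0.25 over the alternatives, and 0.13 without control replicate 3). Osbpl5, an oxysterol-binding protein of lipid transfer, gave 2.20, 2.12 and 2.18 on the control arrays and 1.47, 1.49 and 1.41 on the knockdown arrays. The groups were clearly apart. The change was −0.71 (SE 0.047, adjusted p = 0.00107), and the call was lost within slide row 1 (−0.69, adjusted p = 0.0580). Nap1l4, a histone chaperone next to Osbpl5, had a change of −0.56 (adjusted p = 0.00147), just under the fold minimum. Slc22a18, a transporter, had 0.47 (adjusted p = 0.0336), and Tssc4 and the tetraspanin Cd81 both had 0.25 (adjusted p = 0.0198 and 0.0276), also under 1.5-fold. Cdkn1c, a cyclin-dependent kinase inhibitor that Kcnq1ot1 is known to silence on the paternal chromosome, gave a change of 0.30 (adjusted p = 0.237), with overlapping groups.

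Imprinted genes of other regions were listed for comparison. Of 17 tested, 1 was called lower and 1 higher, with a median change of 0.050 (−0.061 to 0.10 over the alternatives). Magel2, of the Prader-Willi region, gave −2.28, −2.20 and −2.41 on the control arrays and −3.07, −3.36 and −3.12 on the knockdown arrays. The change was −0.88 (SE 0.10, adjusted p = 0.00452) and the call was lost with slide row as a block (−0.77, adjusted p = 0.0530), within slide row 1 (−0.77, adjusted p = 0.0792) and with the normexp background correction, where the change was −0.56 and −0.51, under the fold minimum. Zim1 was called higher, but on none of the 6 arrays was its probe well above background, so no fold is given.

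Of the snoRNA hosts among the members, Snhg1 and Snhg3 were measured. Both gave higher signals on every knockdown array than on any control array, by small amounts that did not pass the test. Snhg1 gave 2.93, 2.89 and 2.96 on the control arrays and 3.12, 3.07 and 3.07 on the knockdown arrays. Its means were 2.93 ± 0.036 and 3.09 ± 0.031 (SD, n = 3 each), a change of 0.16 (SE 0.044, 95% confidence interval 0.050 to 0.27, adjusted p = 0.0560). Snhg3 gave 3.45, 3.44 and 3.45 on the control arrays and 3.56, 3.63 and 3.60 on the knockdown arrays. Its means were 3.45 ± 0.0051 and 3.60 ± 0.032 (SD, n = 3 each), a change of 0.15 (SE 0.040, 95% confidence interval 0.050 to 0.25, adjusted p = 0.0514). These changes are 1.12-fold and 1.11-fold, and both intervals end below a 1.5-fold change. The adjusted p of Snhg1 and Snhg3 depended on the processing. It was 0.0208 and 0.0302 with quantile normalization, and 0.120 and 0.124 with the replicate block (limma).

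The neighbours of both hosts were read from RefSeq. Slc3a2, the heavy chain of an amino acid transporter, and Wdr74, a ribosome assembly factor, flank Snhg1 and had changes of −0.16 (adjusted p = 0.163) and −0.19 (adjusted p = 0.0360), opposite in sign to Snhg1. Rcc1, a regulator of the Ran GTPase, and Phactr4 flank Snhg3 and had changes of 0.10 (adjusted p = 0.200) and 0.40 (adjusted p = 0.00569).

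Further genes with an Snhg symbol were then set beside Snhg1 and Snhg3, a group chosen after these values were seen. In all 8 Snhg genes were tested, the 2 members and 6 others, and for all 8 the 3 knockdown arrays lay above the 3 control arrays, beside 27.7% of all genes. The changes ran from 0.10 for Snhg17 to 0.38 for Snhg10, with a median of 0.17, and none was called. Snhg10 gave 0.97, 0.94 and 0.91 on the control arrays and 1.37, 1.30 and 1.31 on the knockdown arrays, a change of 0.38 (SE 0.044, adjusted p = 0.00433). Snhg6 (0.21) and Snhg16 (0.17) also had an adjusted p below 0.05, at 0.0179 and 0.0343. Over all genes, 15.7% were higher at an adjusted p below 0.05 and any fold. Snhg7 had a change of 0.25 (adjusted p = 0.0501) and Snhg12 of 0.12 (adjusted p = 0.135). All 8 changes were above 0 under each of 19 alternatives run, with medians of 0.15 to 0.26, whereas the number with an adjusted p below 0.05 went from 3 to between 0 and 7.

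**Figure D4:**
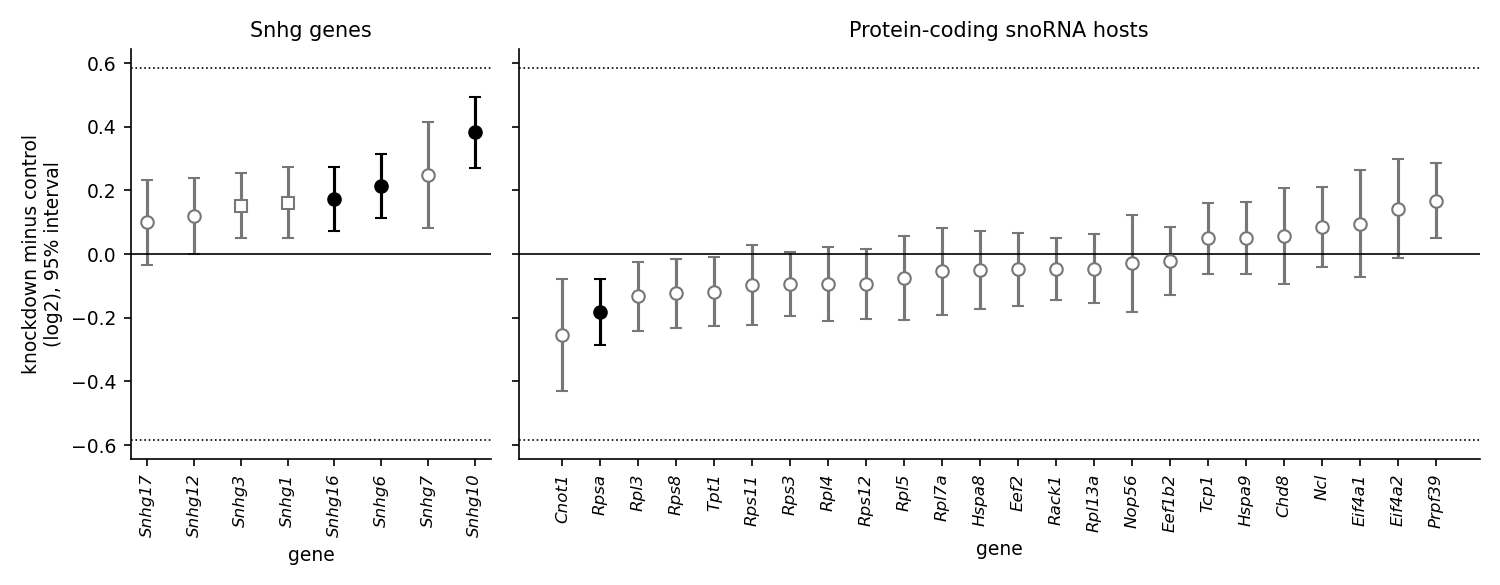
Change between knockdown and control (log2, vertical axis) of the 8 Snhg genes tested (left; squares are Snhg1 and Snhg3) and of 24 protein-coding genes that carry snoRNAs in their introns (right), with 95% confidence intervals from limma. Filled symbols have an adjusted p below 0.05, and dotted lines mark a 1.5-fold change. All Snhg genes lie between 0.10 and 0.38, and the protein-coding hosts lie on both sides of 0.

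The list of further noncoding snoRNA hosts, written with Dancr and the structured RNAs Rmrp and Terc in it, held 9 tested genes. None was called, and the median change was 0.12 (0.081 to 0.17 over the alternatives). Outside the Snhg genes the direction differed: Rmrp, the RNA of RNase MRP, had a change of −0.46 (adjusted p = 0.025), Dancr had −0.18 (adjusted p = 0.0854) and Terc, the telomerase RNA, had 0.038. Rmrp and Terc are not themselves known for carrying snoRNAs. Of the 24 protein-coding snoRNA hosts, among them ribosomal proteins and translation factors, none was called, and the changes ran from −0.25 to 0.17. Their median was −0.049 and turned positive under some alternatives (−0.067 to 0.041). The arrays were separated downwards for 11 of them and upwards for 3, beside 27.1% and 27.7% of all genes. Rpsa, a protein of the small ribosomal subunit, had −0.18 (adjusted p = 0.0333) and was the only host of this list with an adjusted p below 0.05. At that p and any fold, 15.8% of all genes were lower and 15.7% higher.

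The proteins that build snoRNPs, the particles in which snoRNAs work, were not called in either direction. Of 17 tested, the median change was −0.049 (−0.056 to 0.078 over the alternatives, so without a settled sign). Pih1d1, a subunit of the R2TP assembly complex, had −0.55 (adjusted p = 0.00667), and the assembly factors Nufip1 and Znhit6 had −0.29 (adjusted p = 0.00756) and −0.27 (adjusted p = 0.0167). The core protein Nop58 had 0.19, the nucleolar chaperone Nolc1 0.27 and the cap methylase Tgs1 0.25, each with an adjusted p below 0.05. At that p and any fold, 15.8% of all genes were lower and 15.7% higher. The list of nonsense-mediated decay factors held 15 tested genes, with Gadd45b in it, which is not itself known as a factor of the pathway. None of the 15 was called and the median change was 0.052 (0.0091 to 0.10 over the alternatives, and 0.020 and 0.021 without control replicate 3 and knockdown replicate 1). Upf3b had −0.28 (adjusted p = 0.00924), Smg6, the endonuclease of the pathway, −0.27 (adjusted p = 0.0198) and Smg8 0.42 (adjusted p = 0.0125).

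Gas5 and Snhg8 were not analysed here, but their neighbours were. Serpinc1, which encodes antithrombin and lies next to Gas5, was called higher with a change of 0.79 (adjusted p = 0.00644). The Serpinc1 call was lost with the normexp background correction (0.30 and 0.36, under the fold minimum), with slide row as a block (0.79, adjusted p = 0.0667) and within slide row 1 (0.79, adjusted p = 0.127). Cenpl, a centromere protein on the other side, had 0.28 (adjusted p = 0.0120). Zbtb37, whose annotated span overlaps Gas5, had −0.15 (adjusted p = 0.435). Mettl14, a subunit of the RNA methyltransferase and the left neighbour of Snhg8, had −0.043 (adjusted p = 0.555), while Ndst3 on the right was well above background on only 1 array of each group.

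Of 13 further long noncoding RNAs tested, 1 was called higher and none lower, and the median change was 0.28 (0.15 to 0.33 over the alternatives). Mir22hg, the host of miR-22, gave −2.50, −2.75 and −2.74 on the control arrays and −1.84, −1.47 and −1.67 on the knockdown arrays. The groups did not overlap, and the change was 1.0 (SE 0.12, adjusted p = 0.00520), and the call was lost within slide row 1 (0.82, adjusted p = 0.0921) and with slide row as a block (adjusted p = 0.0511). A further 4 had an adjusted p below 0.05 under the fold minimum: Peg13 with 0.58, Norad, which binds Pumilio proteins, with 0.50, Mir17hg with 0.42 and Crnde with 0.33. At that p and any fold, 15.7% of all genes were higher and 15.8% lower. The arrays were separated upwards for 7 of the 13 and downwards for none, beside 27.7% and 27.1% of all genes. In all, 500 probes with a curated noncoding accession and a symbol were tested, with those of the members and of these RNAs among them. Of these probes 3.0% were called lower and 6.0% higher, beside 3.82% and 3.35% of all probes tested. Over the 10 lists together, 3 of 139 genes tested were called lower and 2 higher, beside 5.0% and 3.91% of all genes tested.

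The genes most like each called member were sought among 13975 genes well above background on all 6 arrays, by Pearson's r of the normalized signal over the 6 arrays. These arrays are split into 2 groups, so a high r reflects mainly the group difference. For Neat1 the highest were Wdfy4 (r = 0.997, change −0.93) and the olfactory receptor gene Olfr522 (r = 0.993, change −0.21), and 16 genes had r over 0.98. For Mirg they were Tent5a, a poly(A) polymerase (r = 0.9996, change −0.53), and Mapk8ip3, a scaffold of JNK signalling (r = 0.999, change −0.30), with 889 genes over 0.98.

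**Figure D5:**
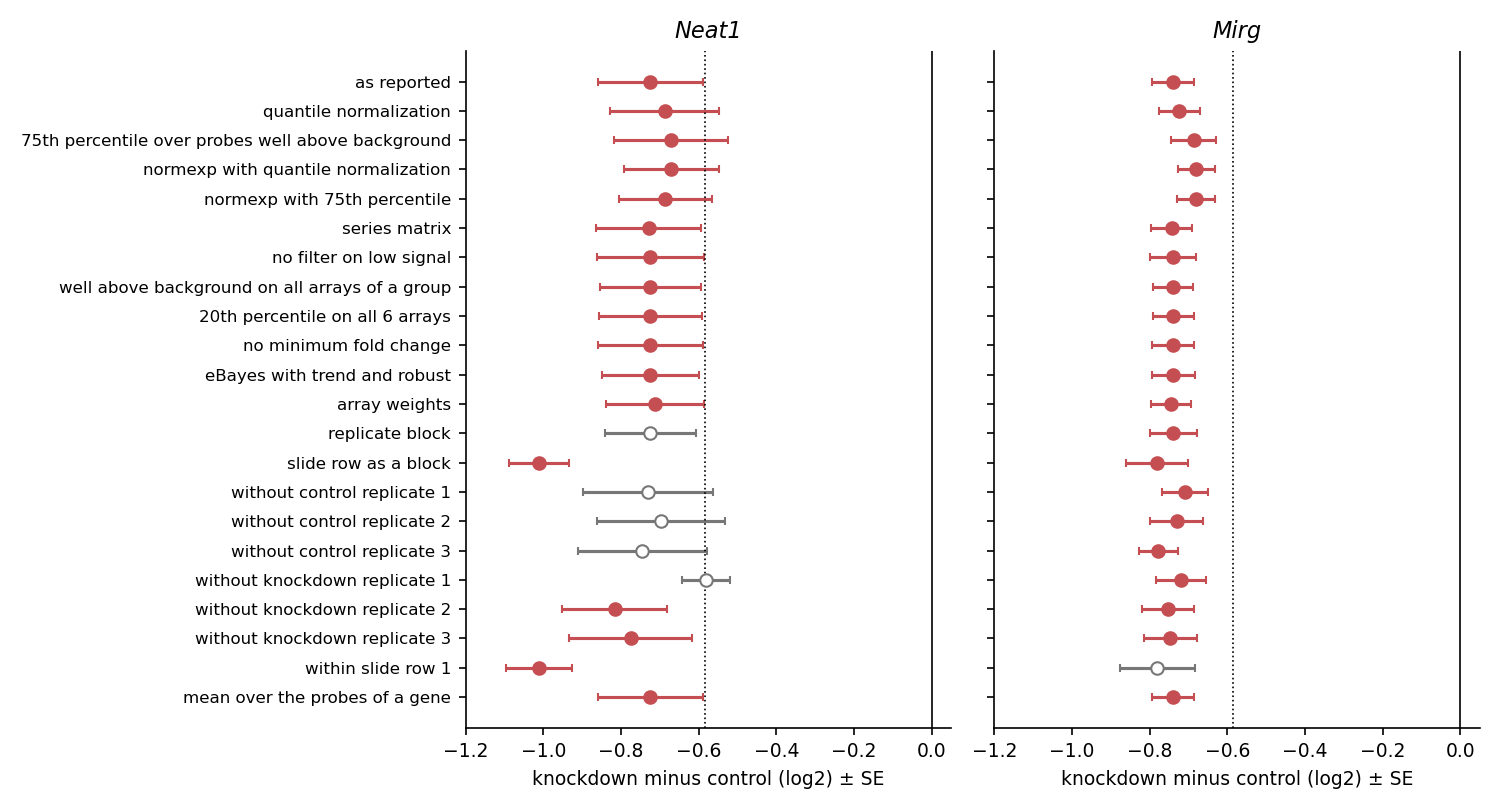
Change ± SE (log2, horizontal axis) of Neat1 and Mirg as reported and under each of 21 alternatives, 1 per line. Filled red circles were called lower, open grey circles were not, and the dotted line marks a 1.5-fold change. Every estimate is below 0. Neat1 lost its call under 5 alternatives and Mirg under 1.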

How the data were processed

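RNA of N2a cells was labelled in a single colour and hybridised to 6 Agilent mouse arrays. The authors scanned them with Feature Extraction 10.10.1.1, and the deposited tables give each spot's processed signal, a background-corrected intensity, with flags. The deposited value table holds log2 values. Each probe's mean over the 6 arrays was subtracted from these and from the values used here. The remaining differences between arrays matched to within 0.00748 over 43557 probes with a single spot.

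Control spots and outlier spots were left out. Log2 of each array's 75th percentile was subtracted and spots of a probe were averaged. A probe was tested when it reached the 20th percentile on all 3 arrays of at least 1 group. Groups were taken from the sample titles, and the comparison used limma 3.58.1 (R 4.3.3; two-sided, no covariates), which was tested on simulated data. The number of arrays limits the precision.

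Symbols came from a RefSeq table (GRCm38.p6) by accession without version, which named 21578 of the tested probes. Probe coordinates are left out, since that assembly is not the one of the array (mm9). The members and gene lists were chosen with earlier results of these data known. Named were all members with their neighbours (some are not reported here) and 2 most similar genes, Nfya and Nfyc, up to 3 called genes of each list and genes of both imprinted regions; other list genes named for an adjusted p below 0.05 or for the Snhg symbol were chosen after their values were seen. Alternatives covered scaling, background, filters, variance model, blocks and left-out arrays.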

Additional observations from a re-analysis of the deposited data

How the results depend on the processing

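Every change of Malat1, Snhg1 and Snhg3 kept its direction under 21 alternatives, with ranges of −0.30 to −0.097, 0.14 to 0.21 and 0.12 to 0.21. All stayed uncalled, and these ranges lie under the 1.5-fold minimum whatever the adjusted p. Neat1 ran from −1.01 to −0.58 and Mirg from −0.78 to −0.68. Mirg lost its call only within slide row 1 (−0.78, adjusted p = 0.0603). With an array left out, Neat1 ran from −0.82 to −0.58, Meg3 from −0.070 to 0.0060, Kcnq1ot1 from −0.22 to 0.36 and Mirg from −0.78 to −0.71. Meg3 turned to 0.028 with the 75th percentile over probes well above background, to 0.0060 without control replicate 2 and to 0.0046 without knockdown replicate 2. Kcnq1ot1 turned to −0.42 with slide row as a block and within row 1, to −0.11 without control replicate 1 and to −0.22 without knockdown replicate 2. The cause was not tested.

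Nothing in the labels says whether the replicate numbers pair the samples. Over the tested probes, deviations of same-numbered arrays from their group means correlated at 0.018, 0.067 and 0.0025. Arrays of different numbers correlated at −0.081 to 0.063. Such values over all probes cannot settle whether samples were paired, nor show it for a single gene. With the replicate block Neat1 kept its change of −0.72 at an adjusted p of 0.0531, which left 1 member probe called lower, and 1 list gene was called higher.

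Of all probes, 905 were called lower and 489 higher under normexp with quantile normalization, 917 and 506 under normexp with the 75th percentile, 4805 and 4797 without a minimum fold, and 605 and 774 within row 1. With an array left out, 1433 to 1667 were called lower and 1197 to 1343 higher. Member probes called lower were 1 within row 1 and 1 to 2 with an array left out. A member probe was called higher, 1 in each case, within row 1 and without knockdown replicate 2 (0 to 1 over left-out arrays): the Meg3 probe that is not well above background on any array. List genes called lower were 1 under both normexp settings and under the row block, 14 without a minimum fold, 0 within row 1 and 2 to 4 with an array left out. Those called higher were 4 under quantile normalization and under the percentile over probes well above background, 1 under both stricter filters, the trend fit and within row 1, 0 under the row block, 21 without a minimum fold and 1 to 3 with an array left out. Normexp used the median spot signal, and this choice and the comparison within row 1 were made after seeing the data. With knockdown replicate 1 alone in its arm there, that array is assumed to vary like the controls. The row block gives the same changes as row 1, since row 2 holds no control array.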
